A study of Mus musculus with 2 samples.

Results

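The autophagy machinery and the FAM134 receptors of ER-phagy were followed through 10 genes, each chosen by its name in the deposited expression table of 34745 genes: Fam134a, Fam134b, Fam134c, Map1lc3a, Map1lc3b, Gabarapl1, Sqstm1, Ulk1, Becn1 and Bnip3. All 10 were found once and all had an average of 1 CPM or more, CPM being counts scaled to library size. RNA was sequenced from whole gastrocnemius, a calf muscle of the mouse, in 2 libraries. Control muscle was from TECRLflox/flox mice, in which the Tecrl allele is conditional, and the other library from TECRLscko mice, which carry the same allele together with Cre at the Pax7 locus. Pax7 drives Cre in satellite cells, which are muscle stem cells, and in cells that descend from them the deletion is kept. Which cells of this muscle still have Tecrl cannot be read from these data. No label states age, sex, injury or how many mice stand behind a library. The table held 19281017 counts in control muscle and 16946124 in TECRLscko muscle.

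With 1 library per group no test across mice could be made. No p-value is given, "higher" and "lower" compare these 2 libraries only, and each 95% interval is an exact Clopper-Pearson interval that covers counting error alone. Fam134c belongs to the set because it differed by at least 4-fold between these libraries, so its ratio is a description and supports nothing.

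In autophagy, a double membrane grows around a piece of the cell, closes and delivers it to the lysosome. The ULK1 kinase starts the process, Beclin 1 belongs to the lipid kinase complex that marks the growing membrane, and small ubiquitin-like proteins of the ATG8 family, the LC3 and GABARAP proteins, are attached to that membrane and hold cargo receptors. In ER-phagy the cargo is a fragment of the endoplasmic reticulum, and the FAM134 proteins sit in the ER membrane, bend it and bind ATG8 proteins. Skeletal muscle relies on autophagy during fasting and exercise, and its sarcoplasmic reticulum is a specialised form of the ER.

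The start regions of the 3 FAM134 genes are shown because Fam134c and Fam134b differed in opposite directions between the 2 libraries, while no direction was detectable for Fam134a. The windows run 5′ to 3′ along the gene's strand, from 250 bases before to 50 bases after a RefSeq start, on build GRCm38.p6, and 8 of the 10 genes had such an entry. In Fam134c (minus strand, chr11:101119792-101120091) the capitals mark the 44 bases that lie between the annotated 5′ ends of Fam134c and of its divergent neighbor Tubg1. In Fam134a (plus strand, chr1:75142536-75142835) and Fam134b (plus strand, chr15:25843048-25843347 for the most upstream start and chr15:25942429-25942728 for the most downstream of its 4 starts) the capitals mark matches to CACGTG, the core letters bound by TFEB and other E-box factors, to TGTTTAC, the letters bound by FOXO factors, or to TGACGTCA, the cAMP response element.
Fam134c: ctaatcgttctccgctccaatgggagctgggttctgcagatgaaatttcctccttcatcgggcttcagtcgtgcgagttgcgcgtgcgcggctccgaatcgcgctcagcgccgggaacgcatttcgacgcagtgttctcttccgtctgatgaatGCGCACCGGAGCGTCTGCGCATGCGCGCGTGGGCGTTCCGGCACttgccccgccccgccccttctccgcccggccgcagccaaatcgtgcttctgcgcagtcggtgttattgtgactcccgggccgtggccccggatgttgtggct
Fam134a: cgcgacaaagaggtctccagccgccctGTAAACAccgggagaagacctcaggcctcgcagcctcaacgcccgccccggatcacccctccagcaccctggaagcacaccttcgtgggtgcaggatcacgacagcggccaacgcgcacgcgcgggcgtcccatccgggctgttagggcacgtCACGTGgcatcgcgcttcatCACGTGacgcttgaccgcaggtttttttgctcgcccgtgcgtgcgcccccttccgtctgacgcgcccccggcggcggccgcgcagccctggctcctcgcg
Fam134b upstream start: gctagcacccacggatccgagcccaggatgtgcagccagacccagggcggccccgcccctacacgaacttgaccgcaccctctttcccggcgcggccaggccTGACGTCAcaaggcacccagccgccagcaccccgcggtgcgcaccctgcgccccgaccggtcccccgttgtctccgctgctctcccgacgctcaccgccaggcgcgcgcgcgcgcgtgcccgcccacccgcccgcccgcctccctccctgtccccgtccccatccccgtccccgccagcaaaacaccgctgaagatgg
Fam134b downstream start: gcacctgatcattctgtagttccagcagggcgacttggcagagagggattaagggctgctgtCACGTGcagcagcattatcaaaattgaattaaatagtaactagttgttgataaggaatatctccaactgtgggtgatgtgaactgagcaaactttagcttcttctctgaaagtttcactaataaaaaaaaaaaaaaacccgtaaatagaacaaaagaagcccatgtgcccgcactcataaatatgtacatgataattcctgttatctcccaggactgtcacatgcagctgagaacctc
Fam134a held CACGTG at 2 places and TGTTTAC once, on the reverse strand as GTAAACA. The upstream Fam134b window held TGACGTCA once and the downstream one CACGTG once. The Fam134c window held none of these letters. Searched on both strands, CACGTG occurred in 7.15% of 32851 mouse start windows of this length, TGTTTAC in 3.65% and TGACGTCA in 1.79%. Across the 11 windows of the 8 genes, CACGTG was found in 3, for Fam134a, Fam134b and Bnip3, beside 8.09% of 27025 mouse genes. The motifs were chosen after the windows had been viewed, so nothing is read from that count. The 3 motifs do not overlap one another in these windows, and which start was used in muscle cannot be read from counts per gene.

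Fam134c (ENSMUSG00000017802, chromosome 11, 101096322 to 101119893, GRCm38, minus strand, protein-coding), listed as Retreg3 in GENCODE M21, is an ER-resident member of the receptor family. It had 275 counts in control muscle and 994 in TECRLscko muscle, or 13.9 and 60.05 CPM after library scaling. The deposited FPKM, which divides counts by gene length and library total, was 2.07 and 8.52. The TECRLscko library was the high one, by 4.31-fold (95% interval 3.77 to 4.94). Among 12559 genes averaging 1 CPM or more, 29 had a log2 ratio at least as high, Fam134c included. Genes past a fold were counted by the log2 ratio with 0.5 CPM added to each library, which lessens the difference of scarce genes, whereas the fold given for a single gene is its plain CPM ratio. At 4-fold or more stood 0.318% of those genes, 0.239% higher and 0.0796% lower in TECRLscko muscle. In whole muscle, a different number of cells of a type and a different amount of RNA per cell cannot be told apart. Fam134c has 5 annotated transcripts, and a count per gene cannot be divided among them. No other of the 10 genes came near the 4-fold limit, and the next in size of difference was Fam134b, at 1.66-fold.

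Fam134b (ENSMUSG00000022270, chromosome 15, 25843264 to 25973687, plus strand), now Retreg1, is the founding ER-phagy receptor of the family and is best known from sensory neurons. It had 4209 counts in control muscle and 2131 in TECRLscko muscle, or 213 and 129 CPM, and its deposited FPKM was 52.8 and 30.4. Here the TECRLscko library was the low one, by 1.66-fold (1.57 to 1.75), the direction opposite to Fam134c. Only 2.10% of the genes compared had a log2 ratio as low or lower.

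Fam134a (ENSMUSG00000049339, chromosome 1, 75142778 to 75147913, plus strand), now Retreg2, was the scarcest of the 10 genes. It had 145 counts in control muscle and 104 in TECRLscko muscle, and its deposited FPKM was 0.857 and 0.699. The ratio of 0.855 had an interval from 0.658 to 1.11, so no direction was detectable at this depth.

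**Figure D1:**
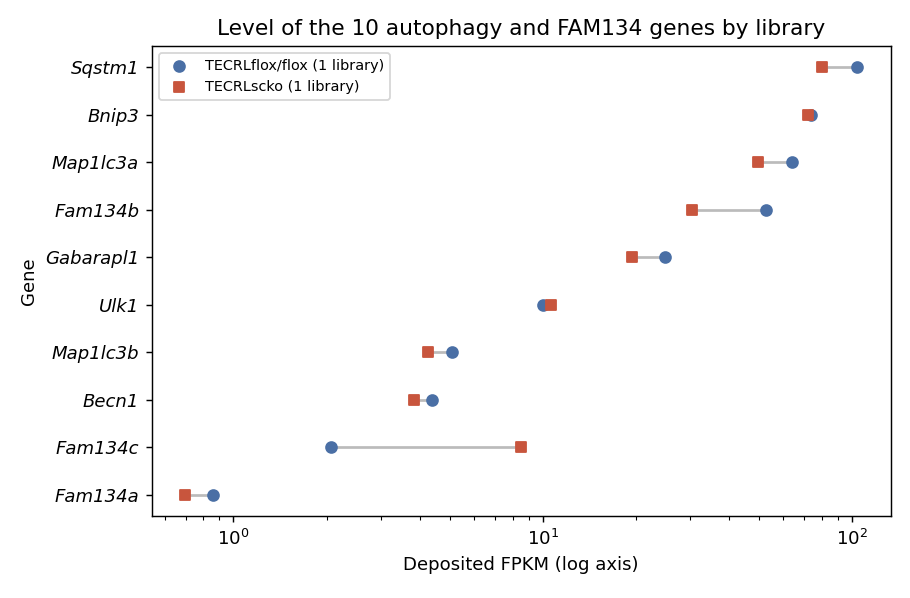
Deposited FPKM on a log axis for each of the 10 genes, with a circle for the TECRLflox/flox library and a square for the TECRLscko library, 1 library each. Fam134c lies at 2.07 and 8.52 and Fam134b at 52.8 and 30.4, while the paired symbols of the other genes lie close together.

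The total and make-up of the family are given as a description only. Fam134c entered the set by its ratio, so the shares of the family follow in part from that choice. Summed over the 3 genes there were 4629 counts in control muscle and 3229 in TECRLscko muscle, or 235 and 195 CPM. In TECRLscko muscle the sum was lower by 1.20-fold (1.15 to 1.26). Fam134b gave 90.9% of the family's counts in the control (90.1 to 91.7 by a 95% Wilson interval) and 66.0% in TECRLscko muscle (64.3 to 67.6). Fam134c gave 5.94% (5.30 to 6.66) and 30.8% (29.2 to 32.4). The share of Fam134a was 3.13% and 3.22%, with intervals that overlap.

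Per length, Fam134b remained the most abundant FAM134 transcript in both libraries. Its deposited FPKM was 25.5 times that of Fam134c in control muscle and 3.57 times in TECRLscko muscle. The gene length behind the deposited FPKM was 6884 bases for Fam134c, although its merged exons span 3589 bases, whereas for Fam134b both lengths were close, at 4134 and 4142 bases. Per kilobase of merged exons, Fam134b stood at 51.5 and 31.1 CPM per kilobase and Fam134c at 3.88 and 16.7. On that scale Fam134b exceeded Fam134c by 13.3 times in control muscle and by 1.86 times in TECRLscko muscle. Fam134c then made up 6.71% of the family in control muscle and 33.5% in TECRLscko muscle, against 3.72% and 21.5% by deposited FPKM. The order of the 2 genes was the same on both scales, and only the distance between them depended on the length used.

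**Figure D2:**
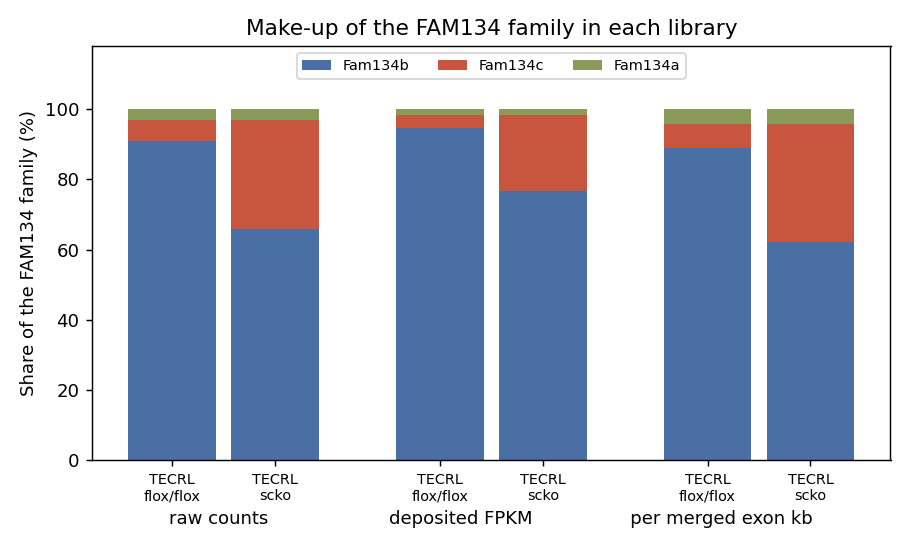
Share of the FAM134 family in percent taken by Fam134b, Fam134c and Fam134a in the TECRLflox/flox and TECRLscko libraries, by raw counts, by deposited FPKM and per kilobase of merged exons. The Fam134c share of counts is 5.94% in the control bar and 30.8% in the TECRLscko bar, and the Fam134a share is close to equal in both.

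Genes beside Fam134c on chromosome 11 did not share its difference. No other counted gene model overlapped it. Tubg1, which encodes gamma-tubulin and starts 45 bases away on the opposite strand, had 682 counts in control muscle and 430 in TECRLscko muscle and a ratio of 0.752 (0.665 to 0.849). Psmc3ip, a recombination factor 886 bases beyond the 3′ end of Fam134c, had 31 and 33 counts, and its ratio of 1.27 had an interval reaching from 0.754 to 2.14. Within 50 kb on either side, 8 other genes reached a mean of 1 CPM. Their log2 ratios lay between -0.56 and 0.44, and none was past 1.5-fold on that scale. Of the 8, 6 were below the control, where 51.8% of all genes compared were below it. The lowest was Naglu, a lysosomal enzyme of heparan sulfate breakdown, with 184 and 102 counts and a plain ratio 1.51-fold lower (1.18 to 1.95). At 1.5-fold or more stood 13.1% of all genes compared.

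**Figure D3:**
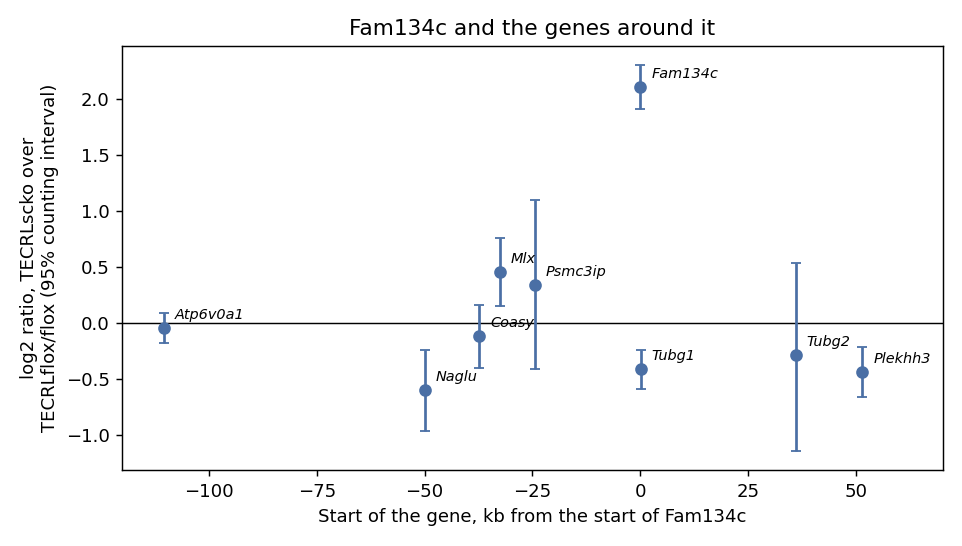
log2 ratio of TECRLscko over TECRLflox/flox with its 95% counting interval for Fam134c and the 8 other genes of at least 1 CPM within 50 kb, placed by the distance of each gene's start from the start of Fam134c in kb. Fam134c stands alone above 2, and Tubg1, at almost the same place on the axis, lies below 0.

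The genes most like Fam134c were taken as the 3 just above and the 3 just below it in log2 ratio among 9330 named genes averaging 5 CPM or more. Over 2 libraries this likeness is only a ratio of similar size. The closest was Smek2, a regulatory subunit of protein phosphatase 4, with 96 counts in control muscle and 369 in TECRLscko muscle and a log2 ratio that differed from that of Fam134c by 0.018. Ahdc1 and Kcnn3, a calcium-activated potassium channel, lay above Fam134c. Ikbkg, the NEMO subunit of the IKK complex, the transcription factor Tcf4 and Mfsd7b lay below. These 6 were between 3.96-fold and 5.70-fold higher in TECRLscko muscle. The order depended on the scale. After a correction of all genes for transcript length and GC content, Fam134c had a log2 ratio of 2.17. The 6 then lay between 1.42 (Tcf4) and 2.08 (Ahdc1), with Smek2 at 1.69, so Ahdc1 was the nearest of them.

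The ATG8 genes were slightly lower in TECRLscko muscle. Map1lc3a (LC3A; ENSMUSG00000027602, chromosome 2, 155276297 to 155278073) had 3127 counts in control muscle and 2125 in TECRLscko muscle, with deposited FPKM of 64.1 and 49.5. Its ratio was 0.810 (0.766 to 0.856). Map1lc3b (LC3B, the usual marker of autophagosomes; ENSMUSG00000031812, chromosome 8, 121590361 to 121598760) had 1035 and 765 counts and was 1.13-fold lower (1.03 to 1.25). Gabarapl1 (ENSMUSG00000030161, chromosome 6, 129533160 to 129542346), a GABARAP-type protein that FOXO factors are known to induce in muscle, had 1534 and 1050 counts and was 1.23-fold lower (1.13 to 1.33). None of the 3 came near 1.5-fold, which 13.1% of all genes compared reached.

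The same held for the full ATG8 family of 5 genes, Gabarap and Gabarapl2 included: all 5 were below the control, with log2 ratios from -0.30 to -0.18, where 51.8% of all genes compared were below it. Their summed counts were 10002 in control muscle and 7051 in TECRLscko muscle, 1.19-fold lower (1.15 to 1.23). Per length the order was Map1lc3a, Gabarap, Gabarapl1, Gabarapl2 and Map1lc3b, by deposited FPKM and per merged exon kilobase alike. Map1lc3a gave 39.2% of the family's deposited FPKM in control muscle and 38.0% in TECRLscko muscle. The make-up of the ATG8 family was thus nearly the same in both. Levels by FPKM are uncertain, since the length behind them exceeded the longest annotated transcript. These lengths were 10574 and 4138 bases for Map1lc3b, 2531 and 1112 for Map1lc3a, and 3194 and 1820 for Gabarapl1. The same held outside this family, as for Sqstm1 (7013 and 2673 bases). The place of Map1lc3b, the last of the 5, was the same on both scales. After a correction of all genes for transcript length and GC content, Map1lc3a came to a log2 ratio of -0.06, Gabarapl1 to -0.11 and Map1lc3b to -0.16.

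Sqstm1 (ENSMUSG00000015837, chromosome 11, 50199366 to 50210827) encodes p62, the receptor that links ubiquitinated cargo to ATG8 proteins and is itself degraded with it. It was the most abundant of the 10 genes, with 14037 counts in control muscle and 9530 in TECRLscko muscle and deposited FPKM of 103.8 and 80.2. The TECRLscko library was 1.24-fold lower (1.20 to 1.27), and the log2 ratio of -0.30 came to -0.15 after the length and GC correction. Large counts make this interval narrow, yet 16.4% of all genes compared had a ratio as low or lower.

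The upstream kinase and lipid kinase genes and the mitophagy receptor had plain ratios between 0.914 and 1.11. Ulk1 (ENSMUSG00000029512, chromosome 5, 110784488 to 110810097), the initiating kinase, had 1875 counts in control muscle and 1750 in TECRLscko muscle, which after scaling was 1.11 times the control level (1.04 to 1.19). Becn1 (ENSMUSG00000035086, chromosome 11, 101285952 to 101302286), which encodes Beclin 1, had 1072 and 822 counts, and its ratio of 0.914 had an interval from 0.834 to 1.002. Bnip3 (ENSMUSG00000078566, chromosome 7, 138890836 to 138909519), an outer mitochondrial membrane receptor for mitophagy induced by hypoxia, had 4479 and 3860 counts, a ratio of 1.03 (0.984 to 1.07). The intervals of Becn1 and Bnip3 include 1. After the length and GC correction the log2 ratio of Becn1 moved from -0.13 to -0.28, the second lowest of the 10 on that measure. The log2 ratio of Bnip3, 0.04, changed sign to -0.03 under total-count scaling and to -0.08 after the length and GC correction.

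The counting interval lay above 1 for Fam134c and Ulk1, and below it for Fam134b, Map1lc3a, Map1lc3b, Gabarapl1 and Sqstm1. For Fam134a, Becn1 and Bnip3 it included 1. Such intervals narrow with depth, and the share of all genes with an interval off 1 was not taken. Nothing is read from this split. The median log2 ratio of the 10 was -0.20, against -0.02 over all genes compared, whose quartiles were -0.21 and 0.24. After the length and GC correction the 2 medians were -0.09 and -0.02. At least 2-fold different was 1 of the 10, Fam134c, beside 3.07% of all genes compared (2.28% higher and 0.796% lower); since Fam134c entered by its ratio, nothing is read from that count.

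**Figure D4:**
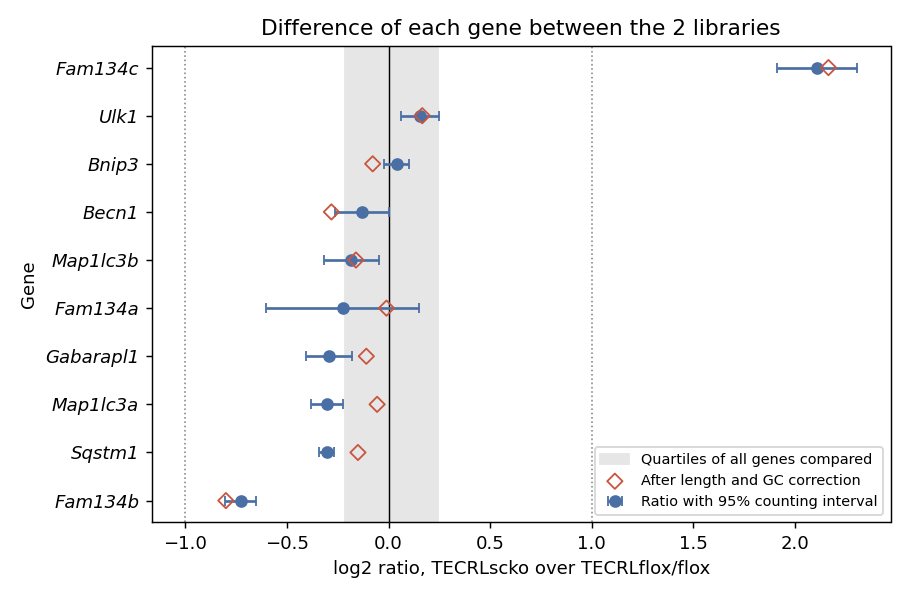
log2 ratio of TECRLscko over TECRLflox/flox for each gene, with filled circles and bars for the plain ratio and its 95% counting interval, open diamonds for the ratio after length and GC correction, a grey band for the quartiles of all genes compared and dotted lines at 2-fold. Fam134c lies near 2 on both measures and Fam134b near -0.7 to -0.8, while the other 8 lie within 0.32 of 0.

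The wider autophagy pathway, listed by step with the 10 genes included, differed little between the libraries. All 86 listed genes were found and 85 passed the filter. At least 1.5-fold higher were 4 genes and at least 1.5-fold lower 2, together 7.06% of the 85, where 13.1% of all genes compared reached 1.5-fold (9.24% higher and 3.88% lower). The median log2 ratio was -0.08, beside -0.02 over all genes compared. Of the 85 genes 48 were below the control and 37 above, where 51.8% of all genes compared were below it. The 10 genes had been chosen with their values known; without them, 4 of 75 reached 1.5-fold and the median was -0.06.

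After the ER-phagy receptors, the initiation genes had the widest range of log2 ratios, from -0.64 to 0.86. Rb1cc1, which encodes FIP200, the scaffold of the ULK1 complex, had 431 counts in control muscle and 661 in TECRLscko muscle and was 1.83-fold higher (1.62 to 2.07). Atg101, a small subunit of the same complex, had 986 and 528 counts and was 1.57-fold lower (1.41 to 1.74). Ulk2, the second kinase, had 1751 and 2070 counts and a log2 ratio of 0.49. Transcript length differed between them: the longest transcript of Rb1cc1 has 7607 bases and that of Atg101 has 1270, and after the length and GC correction their log2 ratios came to 0.28 and -0.39, both within 1.5-fold.

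Of the 8 ER-phagy receptors 3 were past 1.5-fold (37.5%), and of the 5 initiation genes 2 (40%), beside 13.1% of all genes compared. Fam134c is among the 3 through the ratio that chose it, so nothing is read from that count. Fam134b is another, and the remaining one was Ccpg1, a stress-inducible ER-phagy receptor that binds FIP200 as well as ATG8 proteins, with 274 counts in control muscle and 476 in TECRLscko muscle. It was 2.07-fold higher (1.78 to 2.41), and its log2 ratio of 1.02 was 1.08 after the length and GC correction. Its locus is shared with a read-through model and with Pigb, so reads could be divided among them; summed with both, the log2 ratio was 1.07 on 489 and 870 counts. Sec62, a translocon subunit that also serves recovery from ER stress, had 887 and 1091 counts and a log2 ratio of 0.55. Rtn3 (-0.11), Atl3 (0.18) and Tex264 (-0.21) stayed within 1.5-fold. The summed deposited FPKM of the 8 receptors was 82.1 in control muscle and 69.1 in TECRLscko muscle, most of it from Fam134b.

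The remaining steps held 1 gene past 1.5-fold, which 13.1% of all genes compared reached. That gene was Trp53inp1, a stress-induced protein that binds ATG8 proteins, 1.68-fold higher (1.47 to 1.92) on 386 and 545 counts, with a log2 ratio of 0.27 after the length and GC correction. None of 8 nucleation, 9 membrane supply, 11 conjugation, 5 ATG8, 7 cargo receptor, 8 mitophagy or 12 fusion and lysosome genes reached 1.5-fold. These lists are short, so nothing is read from their counts. The median log2 ratio was -0.17 for nucleation and -0.14 for fusion and lysosome genes. Cathepsin D, Ctsd, a lysosomal protease, stood at -0.47 on 18981 and 11516 counts, and the lysosomal membrane protein Lamp1 at -0.15. Among mitophagy genes Pink1, the kinase that marks damaged mitochondria, stood at -0.22 and the median was 0.07. After the length and GC correction Ctsd stood at -0.26, Lamp1 at -0.005 and Pink1 at -0.003. The corrected medians were -0.23 for nucleation, -0.17 for fusion and lysosome and -0.006 for mitophagy genes. The control genes had a median of 0.23, with 9 of 12 above the control and 3 below. Prkaa2, the AMPK subunit of muscle, stood at 0.45 and Tfeb, the master regulator of lysosomal genes, at 0.34. Trp53inp2, the most abundant of this list, stood at -0.04. After the length and GC correction the median of the control genes was -0.03. Prkaa2 then stood at -0.08, Tfeb at 0.55 and Trp53inp2 at -0.003.

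**Figure D5:**
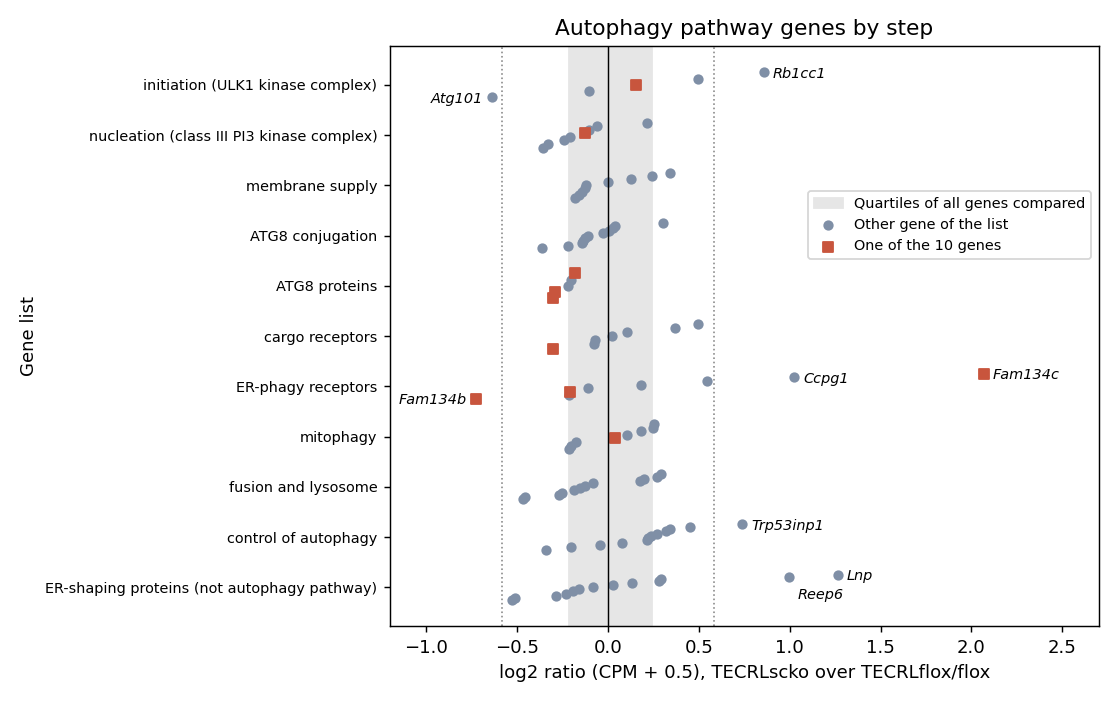
log2 ratio of TECRLscko over TECRLflox/flox, with 0.5 CPM added, for every listed gene past the filter, 1 row per step, with squares for the 10 genes, circles for the others, a grey band for the quartiles of all genes compared and dotted lines at 1.5-fold. In the autophagy rows the points beyond the lines are Fam134c, Ccpg1, Rb1cc1 and Trp53inp1 on the higher side and Fam134b and Atg101 on the lower side.

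Ratio and transcript length went together in the pathway as in the whole table. Across the 85 genes the Spearman correlation of log2 ratio with the length of the longest transcript was 0.35, beside 0.40 across 12524 genes, and with GC content it was -0.41, beside -0.43. These points all come from the same 2 libraries and are not independent. After the correction the log2 ratio was 2.17 for Fam134c and -0.80 for Fam134b. On the corrected scale, 3 of the 85 genes were past 1.5-fold, beside 8.18% of all genes compared.

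The tissue label was checked against cell type markers. The 8 muscle fiber markers were Acta1, Ckm, Myh1, Myh2, Myh4, Tnnt3, Actn3 and Pvalb. All were abundant in both libraries, at a summed 120133 and 107223 CPM, with a median log2 ratio of -0.23. The 4 T and B cell markers gave 13 and 11 counts in all, with 2 of the 4 at 0 in the control. Of 5 slow fiber markers 4 were at least 1.5-fold higher in TECRLscko muscle, with sums of 1148 and 2086 CPM, as were 1 of the 8 muscle fiber markers, 1 of 5 red blood cell markers (232 and 260 CPM) and 1 of 4 Schwann cell markers (82.6 and 70.6 CPM). At least 1.5-fold lower were 3 of 5 adipocyte markers (329 and 286 CPM), 2 of 5 satellite cell markers (49.7 and 35.6 CPM) and 1 of 6 macrophage markers (187 and 154 CPM). None of the 5 endothelial markers (457 and 441 CPM) or 5 fibroblast markers (1920 and 1781 CPM) reached 1.5-fold. The median log2 ratio was 0.98 for slow fiber, 0.21 for red blood cell and -0.21 for Schwann cell markers. It was -0.83 for adipocyte, -0.56 for satellite cell, -0.25 for macrophage, -0.13 for fibroblast and -0.08 for endothelial markers. Most of the adipocyte and satellite cell sums came from 1 gene each, with 6235 of 6495 and 767 of 980 control counts. Of all genes compared, 9.24% were at least 1.5-fold higher and 3.88% lower. The part of these differences in the values of the autophagy genes was not tested. Tecrl itself had 3 counts in control muscle and 4 in TECRLscko muscle, too few to check the deletion.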

How the data were processed

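Libraries of total RNA were sequenced on an Illumina NovaSeq, per the labels' protocols. HISAT2 2.0.4, StringTie 1.3.0, CASAVA and GRCm38 are named, per the submitters' processing notes, without their roles; the counter, strand setting and annotation were not given in the sources used here, so reads of overlapping genes cannot be assigned with certainty. The authors deposited raw counts and FPKM per gene, per the file headers. The deposited FPKM equal counts over gene length and library total, with a length that was the same in both libraries within 1% for 100% of 13061 genes, and often longer than the merged exons of GENCODE M21.

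Counts were scaled with TMM (edgeR 4.0.16, R 4.3.3); the control factor was 1.02 and the TECRLscko factor 0.977. The log2 ratio adds 0.5 CPM to each side; counts of genes past a fold use it, while single folds and intervals are plain CPM ratios. Comparisons cover the 12559 genes averaging 1 CPM or more. Of these, 12524 had a transcript length and GC content for the lowess correction (span 0.3, statsmodels 0.14.6). Without molecular identifiers, reads do not stand for independent molecules. The named genes are the 10, those overlapping or next to Fam134c, the 6 closest to it in ratio, and, from each pathway list, those past 1.5-fold and some of the most abundant; Tfeb, Atl3, Tex264, Gabarapl2, Naglu and Reep4 were named beyond this rule, after their values were seen. Members and lists were chosen with earlier results of these data known, and the promoter motifs after the windows had been viewed. Steps were tested on simulated data. Alternatives were total-count and DESeq2 1.42.0 scaling, FPKM, pseudocounts of 0.1 and 1, other filters and fold rules, overlapping models and the length and GC correction.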

Additional observations from a re-analysis of the deposited data

How the results depend on the processing

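Fam134c kept a log2 ratio between 1.99 and 2.17 and Fam134b between -0.80 and -0.72 under the 7 alternatives run for each. The summed FAM134 log2 ratio of -0.27 was -0.33 with total-count scaling and -0.49 with deposited FPKM, which weights Fam134c by a longer length; per merged exon kilobase, an alternative added after seeing the data, it was -0.21. The count of 1 of the 10 genes past 2-fold was 2 under the 1.5-fold rule. The 6 pathway genes past 1.5-fold were 3 after the length and GC correction and 2 under the 2-fold rule; for the correction the cause was not tested. The pathway median stayed between -0.14 and -0.03 in 10 alternatives. Sqstm1 ranged from -0.37 to -0.15, and Bnip3, not called, from -0.08 to 0.04. Depth limits Fam134a. No paired analysis was possible because there was only 1 library per group, and for the same reason no replicate could be left out.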

Other observations

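Proteins that shape the ER without being listed as autophagy genes were also measured. Of 13 such genes, 2 were at least 1.5-fold higher in the TECRLscko library and none lower on the log2 scale with 0.5 CPM added, beside 9.24% and 3.88% of all genes compared, and the median log2 ratio was -0.08. By plain CPM ratio Reep4, with 99 and 55 counts, was also 1.51-fold lower (1.08 to 2.14). Lnp, which encodes lunapark, a protein of ER tubule junctions, had 157 counts in control muscle and 328 in TECRLscko muscle and was 2.49-fold higher (95% interval 2.05 to 3.03); its log2 ratio of 1.26 was 0.79 after the length and GC correction. Reep6, a membrane-bending protein, had 25 and 50 counts and was 2.38-fold higher (1.45 to 4.02). The most abundant of the list, Rtn2, a reticulon of muscle, had 18109 and 10654 counts and was 1.43-fold lower (1.39 to 1.46), with a log2 ratio of -0.48 after the correction. Atl2, an atlastin that fuses ER tubules, had 4742 and 4052 counts and a ratio of 1.02 (0.977 to 1.06).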
